A study of Mus musculus with 80 samples.

Results

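The genes described here carry glucose into the heart muscle cell and convert it to lactate or pyruvate. They are 10 of the 56941 genes in the deposited count table, taken by name from a list of glucose uptake and glycolysis genes: the glucose transporters Slc2a4 and Slc2a1, and the enzymes Hk2, Pfkm, Aldoa, Gapdh, Pgam2, Eno3, Ldha and Ldhb. All 10 were found in the table and all 10 passed the filter on low counts. Together they took between 0.899% and 1.41% of the counts of a library, with a median of 1.09%. In GENCODE vM39 (GRCm39) the transporters are Slc2a4 (ENSMUSG00000018566) at chr11:69831006-69839070 on the minus strand and Slc2a1 (ENSMUSG00000028645) at chr4:118965908-118996365 on the plus strand. The upper steps of glycolysis are Hk2 (ENSMUSG00000000628) at chr6:82699740-82751469 on the minus strand, Pfkm (ENSMUSG00000033065) at chr15:97990451-98031417 on the plus strand and Aldoa (ENSMUSG00000030695) at chr7:126393822-126399923 on the minus strand. The lower steps are Gapdh (ENSMUSG00000057666) at chr6:125135289-125143518 on the minus strand, Pgam2 (ENSMUSG00000020475) at chr11:5751636-5753760 on the minus strand and Eno3 (ENSMUSG00000060600) at chr11:70546593-70553340 on the plus strand. The lactate dehydrogenases are Ldha (ENSMUSG00000063229) at chr7:46490899-46505061 on the plus strand and Ldhb (ENSMUSG00000030246) at chr6:142435672-142454586 on the minus strand. All 10 are protein-coding, and values below are over their exons.

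Glycolysis splits glucose into pyruvate in a chain of cytosolic enzymes, yielding ATP without oxygen. The adult heart burns mostly fatty acids, and takes up glucose chiefly through an insulin-responsive transporter, GLUT4, with a smaller share through GLUT1, which does not need insulin. Many steps have a muscle form and a more widely expressed form of the enzyme (an isozyme), and heart muscle uses the muscle forms of phosphofructokinase, phosphoglycerate mutase and enolase together with a lactate dehydrogenase rich in the B subunit.

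The series measured polyadenylated RNA in left ventricular tissue of C57Bl/6J mice, and its title names radiation and a high fat diet as the exposures. There are 80 libraries in 8 groups of 10: in each sex, Normal diet with Sham irradiation (0 cGy, called sham here), Western diet with Sham irradiation (0 cGy), Normal diet with the Mix field (50 cGy) and Normal diet with the Gamma field (100 cGy). The cGy is a unit of absorbed dose. The labels do not name the components of the Mix field, the ages, the time from exposure to sampling or the composition of the diets. Titles are a letter for the sex and a number, and each group holds 5 libraries numbered 1-20 (the first run) and 5 numbered 21-40 (the second run). The labels do not say what separates the runs, nor that each library came from a different animal, so the p-values measure only the spread between these libraries.

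Library totals ran from 13484776 to 22143504 counts, with a median of 16383718. All 7 cardiomyocyte markers had a median over 1 CPM, and their summed level ran from 39100 to 65000 CPM, in which each count is divided by the TMM-adjusted total of its library. Of 11 fast skeletal muscle markers, 3 had a median over 1 CPM, while Myh1, Myh2, Myh4 and Tnnc2 had medians under 0.1 CPM. The summed level of that list was 22.1 to 74.6 CPM. Atrial markers summed to a median of 168 CPM in first-run males against 9.9 in second-run males and to 6.59 and 8.36 in the same runs of females. Male Western replicate 7 and female Mix replicate 10 stand apart from their groups in several of the genes below, and no condition comparison of the members gained or lost a call without either. The library labelled female Gamma replicate 7 had 0.129 CPM of Xist and 0 of the Y-linked Ddx3y, so it lacks the transcript that marks females without carrying the one that marks males. Without it the members called were again 0 in the Gamma and sex comparisons, 5 between the runs in females and 4 in the contrast of the runs between the sexes.

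Slc2a4, Slc2a1, Pgam2 and Eno3 are the members whose difference between the runs differed between the sexes, and Ldha, which encodes the A subunit of lactate dehydrogenase, held the most matches to the motifs below among the 5 shown. The 250 bases before their canonical start (GENCODE vM39 on GRCm39, read 5′ to 3′ on the strand of the gene) are therefore printed. Capitals mark ACGTG or GCGTG on either strand, the core letters that the hypoxia factors bind.

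Slc2a4 (chr11:69839062-69839311, minus strand): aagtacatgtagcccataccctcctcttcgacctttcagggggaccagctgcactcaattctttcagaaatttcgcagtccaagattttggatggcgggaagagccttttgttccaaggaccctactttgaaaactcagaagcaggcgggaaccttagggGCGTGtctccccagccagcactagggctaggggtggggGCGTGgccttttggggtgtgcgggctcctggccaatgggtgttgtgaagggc
Slc2a1 (chr4:118965658-118965907, plus strand): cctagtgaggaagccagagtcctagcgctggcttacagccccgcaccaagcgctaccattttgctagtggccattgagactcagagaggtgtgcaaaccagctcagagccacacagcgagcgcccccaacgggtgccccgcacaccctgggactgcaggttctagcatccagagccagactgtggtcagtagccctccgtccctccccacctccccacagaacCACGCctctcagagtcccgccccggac
Pgam2 (chr11:5753760-5754009, minus strand): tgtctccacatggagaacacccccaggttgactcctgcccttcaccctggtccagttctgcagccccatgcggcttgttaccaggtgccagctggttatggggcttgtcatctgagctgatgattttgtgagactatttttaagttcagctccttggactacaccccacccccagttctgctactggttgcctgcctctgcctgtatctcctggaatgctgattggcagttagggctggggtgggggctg
Eno3 (chr11:70547492-70547741, plus strand): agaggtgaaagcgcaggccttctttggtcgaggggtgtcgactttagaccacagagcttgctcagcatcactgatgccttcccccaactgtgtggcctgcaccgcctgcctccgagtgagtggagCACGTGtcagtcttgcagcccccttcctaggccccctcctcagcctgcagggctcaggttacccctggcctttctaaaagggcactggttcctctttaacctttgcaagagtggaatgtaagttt
Ldha (chr7:46495013-46495262, plus strand): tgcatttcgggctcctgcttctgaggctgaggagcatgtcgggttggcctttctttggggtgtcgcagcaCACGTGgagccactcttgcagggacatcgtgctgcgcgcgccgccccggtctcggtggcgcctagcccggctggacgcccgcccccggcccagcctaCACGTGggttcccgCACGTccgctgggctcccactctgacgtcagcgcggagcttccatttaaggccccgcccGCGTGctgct

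Both strands were searched, and overlapping matches were counted. The letters ACGTG occurred 5 times before Ldha, including 2 copies of the palindrome CACGTG, which is read once on each strand, and GCGTG occurred there 1 time. Eno3 had 1 CACGTG, counted as ACGTG 2 times. Slc2a4 had GCGTG 2 times, Slc2a1 had it 1 time, and Pgam2 had neither motif. Of the other members, Hk2 had ACGTG 2 times, Aldoa 1 time, Gapdh had GCGTG 2 times, Ldhb had it 1 time, and Pfkm had each 1 time. In 21654 promoters of the same length, 17% held ACGTG, 31.2% held GCGTG and 6.29% held CACGTG. These matches are a description of the letters in this window.

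The members spanned over 100-fold in level per length. Per kilobase of merged exons, Pgam2 (phosphoglycerate mutase, muscle form) stood at 458 ± 94.4 CPM per kb (SD, n = 80), Aldoa (aldolase A) at 457 ± 67.1 and Gapdh (glyceraldehyde-3-phosphate dehydrogenase) at 452 ± 69.6. These 3 did not differ beyond their spread, and Ldhb and every later gene lay outside 1 SD of the one before. Ldhb followed at 312 ± 31.3, Eno3 (enolase 3, the muscle enolase) at 191 ± 24.5, Ldha at 145 ± 17.3 and Pfkm (muscle phosphofructokinase) at 114 ± 13. The uptake step was lower: Slc2a4, which encodes GLUT4, had 82.5 ± 9.47 CPM per kb, Hk2 (hexokinase 2, which traps glucose by phosphorylating it) had 41.3 ± 5.81, and Slc2a1, which encodes GLUT1, had 3.62 ± 0.685.

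The order at the top depends on which length is used, a choice added after the data were seen. Divided by the length of the canonical transcript, Gapdh led with 2280 ± 351 CPM per kb, Aldoa had 1630 ± 239, Ldhb 916 ± 92, Eno3 599 ± 77 and Pgam2 521 ± 107. The merged exons of Gapdh span 7160 bases against 1420 in its canonical transcript, and those of Pgam2 989 against 870. Counts of genes on the opposite strand cannot be told apart from those of a member unless strand was used in the counting, which is not given in the sources used here: all 989 exon bases of Pgam2 overlap Dbnl (43895 counts over all libraries, against 595062 for Pgam2), 2982 of Gapdh overlap Iffo1 and 1020 of Eno3 overlap Gm12319.

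**Figure D1:**
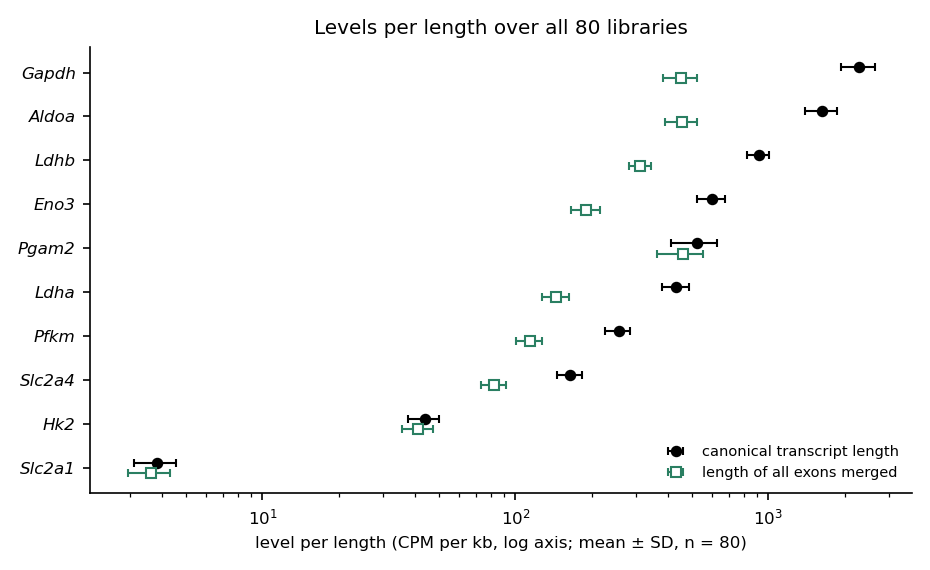
Mean level of each gene in CPM per kilobase (log axis), with bars of 1 SD over the 80 libraries, by canonical transcript length (filled circles) and by merged exon length (open squares). Slc2a1 is lowest by either length, at 3.82 and 3.62 CPM per kb, while Pgam2, Aldoa and Gapdh lie together only by merged length.

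Per length, Pgam2 and Eno3 exceeded the forms found in most cells, Pgam1 (14.5 CPM per kb of merged exons) and Eno1 (16.2), and Ldhb exceeded Ldha. For hexokinase the order depended on the length: Hk1 stood at 23.4 ± 3.52 CPM per kb by merged exons, below Hk2, and at 47.9 ± 7.21 by canonical length, where Hk2 had 43.8 ± 6.17. The ratio of CPM, which can be compared between libraries but not between pairs, had a median of 26.4 for Slc2a4 to Slc2a1, with single libraries from 13.7 to 38.5. It was 14.2 for Pgam2 to Pgam1 (9 to 27.9) and 5.82 for Eno3 to Eno1 (3.11 to 7.57). Hk2 to Hk1 stood at 1.73 (0.809 to 2.54) and Ldha to Ldhb at 0.483 (0.405 to 0.978). Ldhb therefore had more counts than Ldha in every library.

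The spread of the members between libraries was modest. Their coefficients of variation over all 80 libraries ran from 10% for Ldhb to 20.6% for Pgam2. Slc2a4 had 335 to 556 CPM and a median of 427. Slc2a1 had 11.1 to 26.5 CPM, from 165 to 510 counts per library, which makes it the least deeply counted member. Hk2 ranged from 209 to 433 CPM, Pfkm from 579 to 1290, Eno3 from 720 to 1360 and Ldhb from 1090 to 1820. Single libraries lay far above the median in Pgam2 (304 to 834, median 438), Aldoa (1910 to 3550, median 2360), Gapdh (2550 to 4960, median 3120) and Ldha (564 to 1090, median 674). Of these, female Mix replicate 10 had the highest Aldoa and Pgam2, and male Western replicate 7 the highest Gapdh and Ldha.

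**Figure D2:**
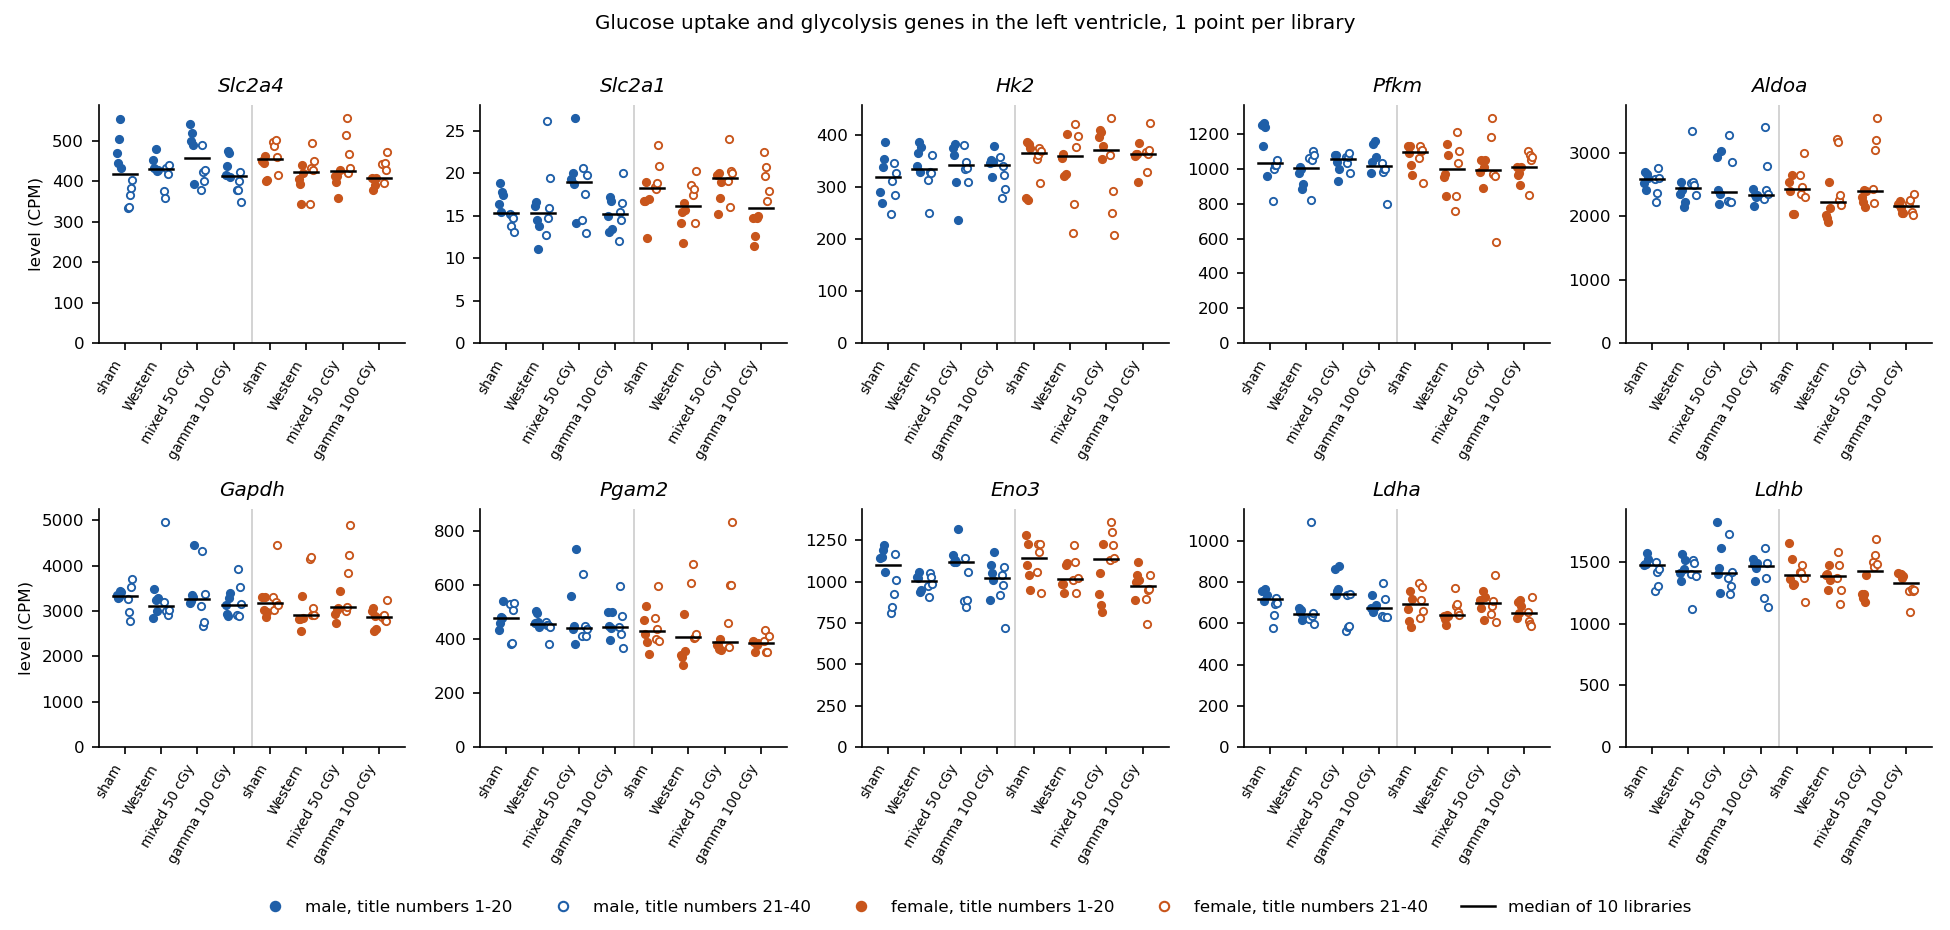
Level of each gene in CPM, 1 point per library, in the 4 conditions of males (blue, left of the line) and females (orange, right), with filled points for title numbers 1-20, open points for 21-40 and a bar at the median of 10. Every treated group overlaps its sham group, and the open points of Slc2a4 lie low in males and high in females.

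The first question of the design is whether diet or irradiation moved these genes. None of the 10 passed edgeR's quasi-likelihood test (Benjamini-Hochberg adjusted p under 0.05 over 15879 genes) in any of the 12 condition comparisons. The range of every treated group overlapped that of sham in all 60 pairs of gene, sex and condition. Such overlap was not counted over all genes, so it does not set the members apart. Of the 120 tests of a member, 4 had an unadjusted edgeR p under 0.05. Among all 15879 genes, 854 to 2034 did in each of these comparisons. DESeq2 and limma-voom also called 0 of the 120, with 5 and 3 at an unadjusted p under 0.05. The 3 conditions share the sham libraries of each sex, so their values are given side by side. In bulk tissue, fewer cells of a type and less RNA per cell cannot be told apart.

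On the Western diet most values lay slightly below sham and none passed the test. In males 0 of 10 were called, where 0.397% of all genes were, and 7 had a negative log2 change (median -0.03, range -0.12 to 0.10). The median over all genes tested was -0.01. In females 0 of 10 were called against 0.0189% of all genes, and all 10 changes were negative, with a median of -0.06. The mean of the sexes gave 0 of 10 against 0% of all genes, and the difference between the sexes gave 0 of 10 against 0.447%.

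Pfkm, which catalyses the committed step of glycolysis, had the smallest p on this diet. Male sham libraries had 814, 1040 and 1260 CPM as lowest, median and highest, and male Western libraries had 823, 1010 and 1100. In females the same values were 916, 1100 and 1130 for sham and 757, 1000 and 1210 for Western. The groups overlapped throughout, and the change was -0.12 ± 0.08 (log2, SE) in males and -0.10 ± 0.08 in females, or -0.11 ± 0.06 over the sexes (edgeR p = 0.0553, adjusted p = 0.452). It was uneven across the runs in males: -0.27 ± 0.08 in the first (edgeR adjusted p = 0.0527) and 0.06 ± 0.13 in the second (adjusted p = 0.999). The test of that difference over the sexes gave 0.17 ± 0.11 (edgeR adjusted p = 0.548).

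After the Mix field at 50 cGy, 0 of 10 members were called in males (0.0693% of all genes), 0 of 10 in females (0%), 0 of 10 over the sexes (0%) and 0 of 10 in the difference between the sexes (0.0315%). In males 9 of 10 changes were positive, with a median of 0.03 beside 0.01 over all genes. In females 6 of 10 were positive, with a median of 0.01. Slc2a1 had the largest male value. Male sham libraries had 13.1, 15.3 and 18.9 CPM as lowest, median and highest, and male Mix libraries had 13, 19 and 26.5. The upper part of the Mix group lay above every sham library while the lower part did not. The change was 0.23 ± 0.11 (edgeR p = 0.0523, adjusted p = 0.621), with 0.21 ± 0.13 in the first run and 0.25 ± 0.15 in the second. In females it was 0.07 ± 0.11.

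After Gamma at 100 cGy, 0 of 10 members were called in males (0.176% of all genes), 0 of 10 in females (0%), 0 of 10 over the sexes (0%) and 0 of 10 in the difference between the sexes (0%). In each sex 9 of 10 changes were negative. The median was -0.04 in males and -0.12 in females, where the median over all genes was 0.00, and Hk2 was the exception in each sex (0.08 ± 0.10 and 0.07 ± 0.10).

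In the female Gamma comparison 3 members, Eno3, Aldoa and Gapdh, had an unadjusted p under 0.05. Eno3 had 934, 1140 and 1280 CPM (lowest, median, highest) in sham and 742, 977 and 1120 in Gamma. Pgam2 had 347, 430 and 596 in sham against 351, 387 and 433. Gapdh had 2860, 3170 and 4460 in sham against 2550, 2880 and 3250. In Eno3, Pgam2 and Gapdh the groups overlapped, and the highest Gamma library was below the highest sham library. The groups overlapped in Aldoa too. Gamma libraries above the sham median numbered 0 of 10 in Eno3 and Aldoa and 1 of 10 in Pgam2 and Gapdh, which was not counted over all genes. The changes were -0.22 ± 0.08 for Eno3 (edgeR p = 0.00845, adjusted p = 0.391), -0.21 ± 0.12 for Pgam2, -0.18 ± 0.09 for Gapdh and -0.18 ± 0.09 for Aldoa. Over the sexes Eno3 gave -0.15 ± 0.06 (edgeR p = 0.0116, adjusted p = 0.368). Leaving out each library of the comparison in turn, the female Eno3 change stayed between -0.25 and -0.18, and without the library labelled female Gamma replicate 7 there were again 0 of 10 calls.

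A property of the libraries also differed between female sham and female Gamma. For each library the median centred log2 CPM of 1491 protein-coding genes with transcripts under 1500 bases was compared with that of 5628 genes with transcripts over 4000 bases. This length index, added after the data were seen and computed without the pathway genes, had a median of -0.02 in female sham (-0.22 to 0.39) and -0.18 in female Gamma (-0.24 to 0.05). With the index as a term in the edgeR model the female Gamma changes were 0.02 ± 0.06 for Pgam2, -0.02 ± 0.05 for Aldoa, -0.05 ± 0.07 for Gapdh and -0.14 ± 0.07 for Eno3 (adjusted p = 0.912). The index was computed from the same libraries and varies with these genes, as given below. Its part in the female Gamma changes was not tested.

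**Figure D3:**
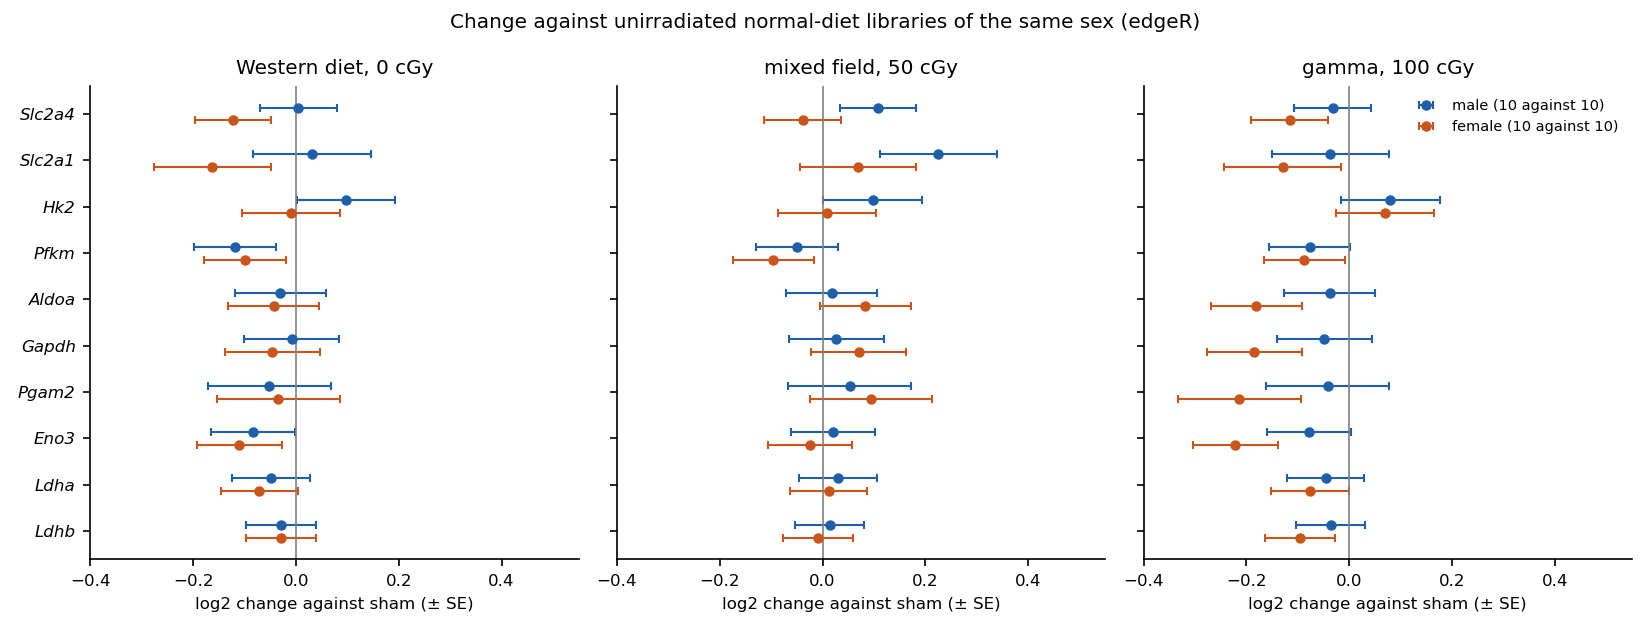
Log2 change of each gene against sham of the same sex, with bars of 1 SE from edgeR, for the Western diet, the mixed field and gamma irradiation, in males (blue) and females (orange), 10 libraries against 10. No change passed the adjusted threshold, and female gamma values for Aldoa, Gapdh, Pgam2 and Eno3 lie between -0.22 and -0.18.

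No member passed the test of whether a condition effect differed between the runs. With the sexes averaged, 0 of 10 members were called for the Western effect (0% of all genes), 0 of 10 for the Mix effect (1.27%) and 0 of 10 for the Gamma effect (0%), with 1 of 30 tests at an unadjusted p under 0.05 by edgeR, 1 by DESeq2 and 1 by limma-voom. That 1 was Ldhb in the Mix effect, at 0.20 ± 0.09 (edgeR adjusted p = 0.25). Across the 8 comparisons of all kinds in which edgeR called 0 genes in the whole table, 673 to 2008 genes had an unadjusted p under 0.05. DESeq2 called 0 to 3 genes and limma-voom 0 in those.

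The direction of the calls between the sexes was male higher in the first run and male lower in the second. Over all 80 libraries 0 of 10 members were called between the sexes by edgeR, DESeq2 or limma-voom, where 23.3% of all genes were called by edgeR. At an unadjusted p under 0.05 the 3 tools had 0, 2 and 1 members. Among title numbers 1-20 alone, where 32.4% of all genes were called in either direction, 6 of 10 were higher in males by edgeR: Pgam2 (0.32 ± 0.06, adjusted p = 0.000177), Slc2a4, Gapdh (0.16 ± 0.04), Aldoa (0.15 ± 0.05), Ldhb (0.13 ± 0.04) and Ldha. Apart from Slc2a4, these have the shortest canonical transcripts of the 10. The length index had medians of 0.04 in males and -0.17 in females of that run, and of 0.01 and -0.11 in the other. Its part in the sex calls of each run was not tested. Among title numbers 21-40 alone, where 20.3% of all genes were called, 3 of 10 were lower in males, Slc2a1 (-0.25 ± 0.07, adjusted p = 0.0154), Slc2a4 and Eno3 (-0.15 ± 0.06, adjusted p = 0.0439), and none was higher.

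Slc2a4 shows this most plainly. Males had 394, 461 and 554 CPM (lowest, median, highest, n = 20) in the first run and 335, 392 and 490 in the second. Females had 343, 406 and 462 in the first run and 345, 448 and 556 in the second. Male means were lower in the second run in all 4 conditions, without overlap in 1 of them, and female means were higher in all 4, with overlap in each. The log2 difference of the second run from the first was -0.23 ± 0.04 in males (edgeR adjusted p = 1.17e-05) and 0.15 ± 0.04 in females (adjusted p = 0.00412). Male against female it was 0.19 ± 0.04 in the first run (edgeR adjusted p = 0.000378) and -0.20 ± 0.05 in the second (adjusted p = 0.00181).

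In males, the second run gave 2 of 10 members called, both lower, where 29.8% of all genes were called. Besides Slc2a4 this was Eno3, with 891, 1110 and 1320 CPM in the first run and 720, 977 and 1170 in the second. Its male means were lower in all 4 conditions, with overlap in each, and the difference was -0.18 ± 0.05 (edgeR adjusted p = 0.0056). The other 8 male values ranged from -0.10 for Ldhb to 0.08 for Aldoa. Ldha had an edgeR adjusted p of 0.013 without male Western replicate 7, and Ldhb one of 0.0324 without male Mix replicate 7.

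In females, 5 of 10 members were higher in the second run than in the first, where 24% of all genes were called in either direction. Slc2a1 had 11.5, 15.6 and 20 CPM in the first run and 14.1, 19 and 24.1 in the second, a difference of 0.30 ± 0.07 (edgeR adjusted p = 0.001). Pgam2 had 304, 379 and 524 CPM, then 351, 427 and 834, a difference of 0.30 ± 0.07 (adjusted p = 0.00181). These 2 genes, with Slc2a4, Aldoa and Gapdh, had the higher mean in the second run in all 4 female conditions.

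Aldoa, which splits fructose-1,6-bisphosphate, had 1910, 2170 and 2660 CPM, then 2020, 2360 and 3550, a difference of 0.20 ± 0.06 (edgeR adjusted p = 0.00618). Gapdh, which makes NADH at the next step, had 2550, 2950 and 3440, then 2770, 3110 and 4900, a difference of 0.20 ± 0.06 (adjusted p = 0.015). In both genes the runs overlapped, and the medians lay closer together than the highest libraries. Without female Mix replicate 10 the Gapdh difference was 0.15 with an edgeR adjusted p of 0.0556, and the other 4 calls held without any single library.

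The contrast of the run difference between the sexes, male minus female, was added after the data were seen. It called 4 of 10 members, all lower, where 26.9% of all genes were called in either direction: Slc2a4 at -0.39 ± 0.06 (edgeR adjusted p = 8.53e-07), Pgam2 at -0.36 ± 0.11 (adjusted p = 0.00694), Slc2a1 at -0.32 ± 0.10 (adjusted p = 0.0103) and Eno3 at -0.24 ± 0.07 (adjusted p = 0.00936). All 10 values were negative, with a median of -0.15 beside 0.02 over all genes tested. Hk2 had the smallest, -0.02 ± 0.09. Without male Western replicate 7, Gapdh and Ldha were called as well (edgeR adjusted p = 0.029 and 0.0309). With so many genes called in each run comparison, a count of 2, 4 or 5 of 10 does not set the members apart.

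**Figure D4:**
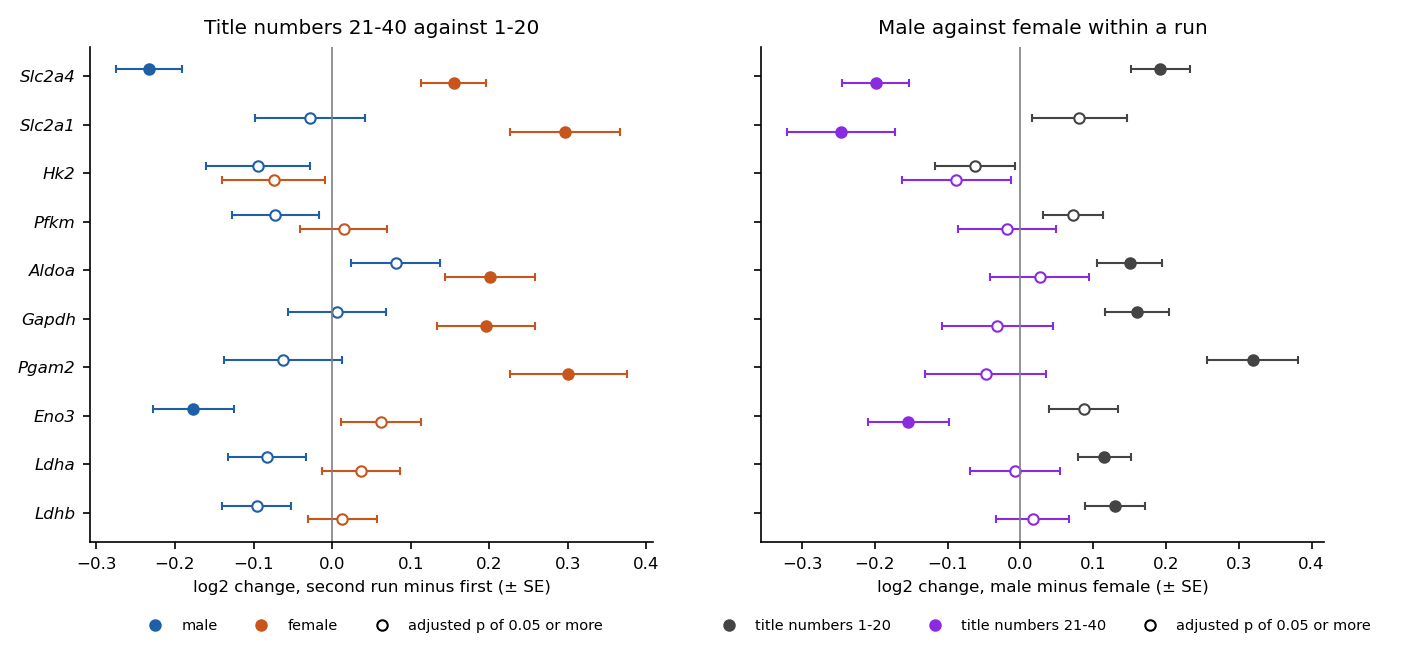
Left, log2 difference of title numbers 21-40 against 1-20 in males (blue) and females (orange), right, male against female within title numbers 1-20 (grey) and 21-40 (purple), with bars of 1 SE and filled points where the edgeR adjusted p is under 0.05. Slc2a4 lies at -0.23 in males and 0.15 in females on the left, and at 0.19 and -0.20 on the right.

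Several other measures of the libraries also differed by run and sex, not all in the direction of the members. The share of counts on Rn18s-rs5, a ribosomal RNA transcript that poly-A selection should remove, had a median of 3.57% in first-run females and 0.483% in second-run females, and of 0.351% and 1.65% in the same runs of males. In an edgeR model with that share entered separately by sex beside the run, 0 of the 5 female calls (2.7% of all genes were called), 1 of the 2 male calls (3.3%) and 1 of the 4 calls in the contrast between the sexes (3.82%) passed. The female values were then 0.08 ± 0.07 for Slc2a4, 0.21 ± 0.12 for Slc2a1, 0.22 ± 0.09 for Aldoa, 0.20 ± 0.10 for Gapdh and 0.30 ± 0.12 for Pgam2, so the last 3 kept their size with a larger error. The part of this share in the run differences beyond that was not tested.

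The first principal component of the clock genes, whose transcripts cycle over the day, had medians of -2.73 and 2.34 in first-run and second-run females and of 1.24 and -0.16 in males. With 2 clock components as terms, the Slc2a4 difference in females was 0.09 ± 0.05 (edgeR adjusted p = 0.196), while 5 of 10 members were called in females (27.9% of all genes), 2 in males (34.5%) and 7 in the contrast between the sexes (23.6%). The length index had medians of -0.17 and -0.11 in first-run and second-run females and 0.04 and 0.01 in males. With the index as a term, 3 members were called in females (19.5% of all genes) and 3 in males (36%). Females had Slc2a4 at 0.16 ± 0.04 (adjusted p = 0.00373) and Slc2a1 at 0.29 ± 0.07 (adjusted p = 0.00187), unlike Aldoa at 0.09 ± 0.03 (adjusted p = 0.055), Gapdh at 0.10 ± 0.05 (adjusted p = 0.175) and Pgam2, reduced to 0.14 ± 0.04 (adjusted p = 0.0135). The contrast between the sexes still called Slc2a4, Slc2a1, Pgam2 and Eno3 with the index (29.1% of all genes). Smooth muscle markers summed to a median of 159 CPM (95.7 to 317) in first-run males and 126 (90.9 to 184) in second-run males, and to 86.4 (42 to 176) and 120 (83.2 to 217) in females. In that contrast 3 of the 3 tested were lower. So were 3 of 6 fibroblast markers, whose sum had medians of 823 and 650 CPM in males and 720 and 706 in females. Higher in it were 3 of 7 erythroid markers (medians of 187 and 405 CPM in males, 424 and 280 in females) and 3 of 3 neutrophil markers (1.29 and 2.45, then 2.35 and 2.17). In that contrast single markers were called in the cardiomyocyte, skeletal muscle, atrial and endothelial lists, and 0 of the macrophage and adipocyte lists. The male run comparison itself called adipocyte Adipoq (-1.57), Plin1 (-1.92) and Cfd (-2.20) lower in the second run. Atrial Myl7 (-2.55), Myl4 (-1.92) and Sln (-3.08) were also called lower there, and Bmp10 (2.49) higher. The part of these cell types was not tested.

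Ratios between isozymes were compared by two-sided permutation tests with 100000 resamples, 50 tests in all, of which 10 split the runs by sex and were added later. They cancel the scaling of a library but not effects of transcript length, and 4 passed after Benjamini-Hochberg adjustment. Eno3 to Eno1, where Eno1 is the form found in most cells, had a mean log2 ratio of 2.67 ± 0.14 (SD) in first-run males and 2.29 ± 0.26 in second-run males. That difference of -0.39 had a permutation p of 1e-05, the smallest these resamples can give, and an adjusted p of 0.0005. In females it was -0.07 (adjusted p = 0.882), and over the sexes -0.23 (adjusted p = 0.003). Slc2a4 to Slc2a1 had a second-run difference of -0.17 over the sexes (permutation p = 0.00098, adjusted p = 0.0163), with -0.20 in males and -0.15 in females, which alone had adjusted p-values of 0.158 and 0.189.

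Pgam2 to Pgam1 was the only ratio that differed between the sexes. Its mean log2 value was 3.96 ± 0.29 (SD) in 40 male libraries and 3.77 ± 0.30 in 40 female libraries, a difference of 0.19 (permutation p = 0.00278, adjusted p = 0.0347). It was 0.26 in the first run and 0.13 in the second, and did not pass in either alone. It lost its call without any 1 of 12 libraries: male Western replicates 1, 2, 3, 4 and 10, male Mix replicates 5 and 9, female Mix replicates 1 and 3, and female Gamma replicates 2, 7 and 9 (adjusted p up to 0.063). Pgam2 has a canonical transcript of 870 bases and Pgam1 one of 1798, and the length index correlated with Pgam2 at r = 0.849. The index had medians of 0.04 and -0.17 in first-run males and females, and 0.01 and -0.11 in the second run. Its part in this ratio was not tested. Ldha to Ldhb passed in none of its 10 tests, with differences of means from -0.04 to 0.03. Its difference between female Mix and female sham libraries was 0.26 in the first run and -0.21 in the second. None of the 30 tests of a condition passed over all libraries.

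Male Western replicate 7 decided 3 of those tests, as leaving out libraries, added after the data were seen, showed. Without it the male Western difference in Ldha to Ldhb was -0.15 (permutation p = 0.00343, adjusted p = 0.028) in place of -0.03. Hk2 to Hk1 was 0.31 (adjusted p = 0.028) in place of 0.19, and Pgam2 to Pgam1 was 0.32 (adjusted p = 0.0116) in place of 0.23. Without male Mix replicate 4, Slc2a4 to Slc2a1 passed between the runs in males alone, at -0.23 (adjusted p = 0.0279). The smallest p over all libraries was that of Pgam2 to Pgam1 in female Gamma libraries at -0.23 (permutation p = 0.0106, adjusted p = 0.106), which was -0.29 (adjusted p = 0.00433) without female sham replicate 10. The length index had medians of -0.02 in female sham and -0.18 in female Gamma libraries, and its part in this ratio was not tested.

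Between libraries of the same group and run the members did not move as 1 block. Pearson's r of log2 CPM, with the means of group and run removed, was positive in 27 of 45 pairs of members, and 26 pairs passed a permutation test after adjustment over the 45. The median r was 0.26. Points share the library, its depth and its scaling.

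Aldoa, Gapdh and Pgam2 formed the tightest set. Aldoa with Gapdh had r = 0.854 (Spearman's rho 0.81, permutation p = 1e-05, adjusted p = 5.63e-05, n = 80), and r = 0.837 without the 2 libraries farthest from the median of Aldoa. Within the 4 strata of sex and run it was 0.503, 0.902, 0.726 and 0.957. Aldoa with Pgam2 had r = 0.839 (rho 0.803, permutation p = 1e-05, adjusted p = 5.63e-05) and Gapdh with Pgam2 r = 0.764 (rho 0.734, permutation p = 1e-05, adjusted p = 5.63e-05). Without the farthest 2 libraries these were 0.82 and 0.80.

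Of the pairs among the transporters, Hk2 and Pfkm, that of Slc2a4 with Pfkm held in every stratum. It had r = 0.651 (rho 0.675, permutation p = 1e-05, adjusted p = 5.63e-05), 0.647 without the farthest 2, and 0.53 to 0.77 in the strata. Hk2 with Pfkm had r = 0.599 (rho 0.416, permutation p = 8e-05, adjusted p = 0.0003) but only 0.021 in first-run males and -0.088 in first-run females, so that value rests on the second run. Slc2a4 with Hk2 had 0.532 but -0.062 in first-run females, and Slc2a1 had -0.089 with Hk2 and -0.082 with Pfkm. Hk2 ran opposite to Aldoa, with r = -0.651 (rho -0.555, permutation p = 1e-05, adjusted p = 5.63e-05; -0.599 without the farthest 2). With Gapdh it had -0.612 and with Pgam2 -0.586, and these 3 values were negative in each of the 4 strata.

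Transcript length ran alongside this pattern. Pgam2 (870 bases), Gapdh (1420) and Aldoa (1511) have the shortest canonical transcripts of the 10 and Hk2 (7796) the longest. The length index correlated with Aldoa at r = 0.85 (rho 0.813), with Pgam2 at 0.849 (rho 0.755), with Gapdh at 0.667 (rho 0.589) and with Hk2 at -0.681 (rho -0.662), each with a permutation p of 1e-05 and an adjusted p of 2.5e-05 over the 10 members. Without the 2 libraries farthest in the index these were 0.832, 0.833, 0.632 and -0.662, and all kept their sign in the 4 strata. Ldhb (1529 bases) had r = 0.532, Eno3 (1741) 0.419 and Ldha (1588) 0.408, with permutation adjusted p-values of 0.00032, 0.000786 and 0.0005. Pfkm (3997 bases) had -0.263 (adjusted p = 0.114). Slc2a4 (2610 bases, r = -0.068, rho 0.016) and Slc2a1 (r = 0.047, rho 0.089) had pooled values near 0, with permutation p-values of 0.642 and 0.736. Slc2a1, at 4445 bases, is longer than every member but Hk2. For Slc2a4 the pooled value averaged strata of opposite sign, at -0.231 and 0.412 in first-run and second-run males and 0.415 and -0.569 in females. In the same order, Slc2a1 had -0.371, 0.229, 0.265 and 0.016, and Pfkm had 0.199, -0.06, 0.36 and -0.716.

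With the index regressed out, an adjustment added after the data were seen, Hk2 with Pgam2 went to r = -0.021, with Aldoa to -0.185 and with Gapdh to -0.289. Aldoa with Pgam2 went to 0.422, while Aldoa with Gapdh stayed at 0.731, Aldoa with Ldha at 0.575 and Slc2a4 with Pfkm at 0.658. Hk2 with Ldhb went from -0.028 to 0.539. The index was highest, at 0.61, among second-run females and was computed from the same counts as the members.

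**Figure D5:**
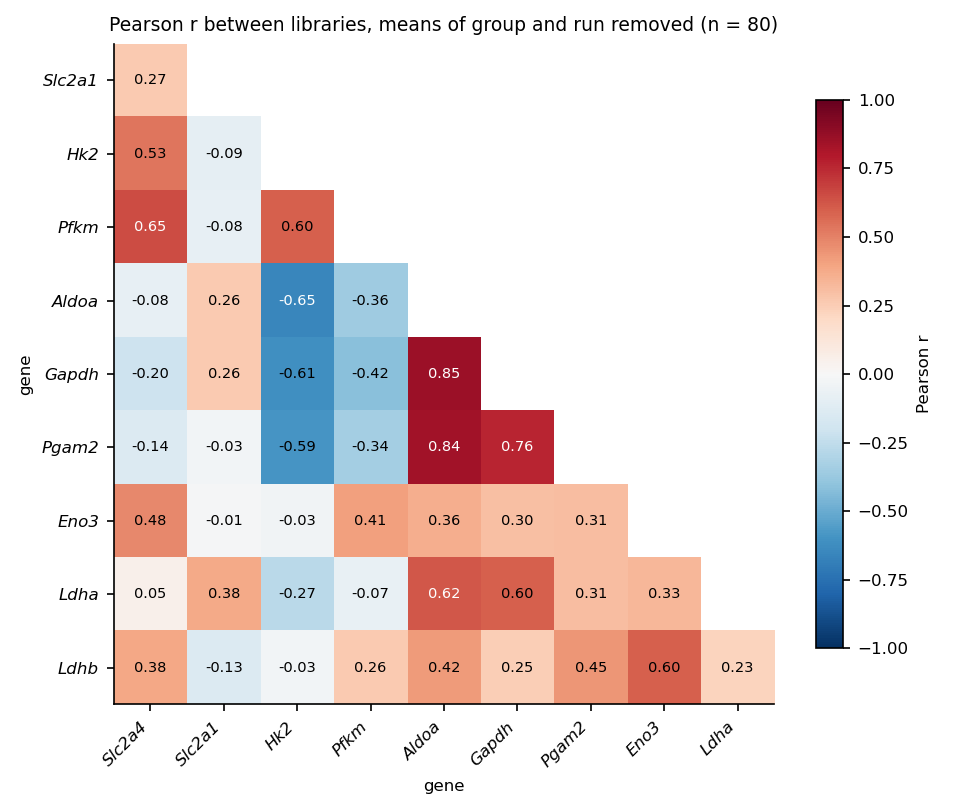
Pearson r between each pair of genes over 80 libraries after removing the means of group and run, on a colour scale from -1 (blue) to 1 (red). Aldoa, Gapdh and Pgam2 form the darkest red block, at 0.76 to 0.85, and Hk2 is blue against all 3.

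The genes most like each member, by the same r over 80 libraries, differed between the members. Nearest to Slc2a4 were Dgat2 (0.803), an enzyme of triglyceride synthesis, and Akt2 (0.773), a kinase of the insulin pathway, then Tmem38a (0.741). Slc2a1 was nearest to Hk1 (0.624), Clu (0.611) and Pbxip1 (0.604), the lowest values of any member. Nearest to Hk2 were Rap1gap2 (0.901), Pcyt1a (0.873) and the calcium pump Atp2a2 (0.862), and to Pfkm the mitochondrial genes Atp5f1b (0.889), Sdha (0.88) and Atp5f1a (0.879).

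Aldoa was nearest to Mif (0.886), Ndufs7 (0.856) and Cox6a1 (0.855), Gapdh to Mif (0.856), Sars1 (0.842) and Plekho1 (0.806), and Pgam2 to Cryab (0.897), Tnnc1 (0.894) and Csrp3 (0.891). Cryab is a small heat shock protein, Tnnc1 is cardiac troponin C and Csrp3 is a muscle LIM protein. Eno3 was nearest to Atp5mc3 (0.68), Gpt (0.679) and Atp5mc2 (0.678), Ldha to the glycolytic Tpi1 (0.705), Msrb1 (0.686) and the nucleotide carrier Slc25a5 (0.674), and Ldhb to Eci1 (0.822), Gcdh (0.812) and Gstk1 (0.806), which act in mitochondrial or peroxisomal metabolism.

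The rest of the pathway was read from 5 further lists. None of their genes was called in the 12 condition comparisons by edgeR, in 828 tests of which 83 had an unadjusted p under 0.05. Between the sexes, where 23.3% of all genes were called (1870 higher in males and 1826 lower), 2 of 20 other glycolysis genes were higher in males and 4 lower, 0 of 5 lactate transport genes were called, and 2 of 14 genes of pyruvate entry into mitochondria were higher. Of 17 glycogen genes 2 were higher and 1 lower, and of 13 regulators 3 were higher and 3 lower. The smallest p-values belonged to Tigar (0.14 ± 0.03, edgeR adjusted p = 0.000123), which lowers fructose-2,6-bisphosphate, and Klf15 (-0.22 ± 0.05, adjusted p = 0.000325), a factor that raises Slc2a4 transcription. Slc2a3, a transporter (0.33 ± 0.07), Ugp2, which makes the glycogen precursor (0.21 ± 0.05), Tbc1d1, which holds GLUT4 vesicles back (0.30 ± 0.07), and Gsk3a, a kinase of glycogen synthase (0.15 ± 0.04), were higher in males.

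Between the runs, where 29.8% of all genes were called in males (2699 higher and 2034 lower), males had 6 of 20 other glycolysis genes higher and 1 lower, 1 of 14 pyruvate entry genes higher and 5 lower, 0 glycogen genes higher and 5 lower, 2 regulators higher and 4 lower, and 0 of 5 lactate transport genes called. Pfkfb2, the heart form of the enzyme that makes the activator of phosphofructokinase, was higher by 0.70 ± 0.10 (edgeR adjusted p = 3.71e-08), and the glucose-sensing factors Mlxipl and Mlxip by 0.49 ± 0.09 and 0.31 ± 0.07. Mpc1, a subunit of the pyruvate carrier, was higher by 0.33 ± 0.08. Dlat, a subunit of pyruvate dehydrogenase, was lower at -0.28 ± 0.06, and so was the nuclear receptor Esrra at -0.19 ± 0.04.

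Females, with 24% of all genes called (1893 higher and 1914 lower), had 4 of 20 other glycolysis genes higher and 0 lower, 1 pyruvate entry gene higher and 6 lower, 1 glycogen gene higher and 3 lower, 1 regulator higher and 2 lower, and 1 lactate transport gene lower. Slc2a8, another glucose transporter, was higher by 0.41 ± 0.06 (edgeR adjusted p = 1.35e-07), Gpi1, the isomerase between hexokinase and phosphofructokinase, by 0.25 ± 0.04, Pdk2, a kinase that turns pyruvate dehydrogenase off, by 0.29 ± 0.05 and Epas1, a hypoxia factor, by 0.31 ± 0.06. Pdpr and Pdk4 were lower, at -1.18 ± 0.24 and -0.84 ± 0.19 (edgeR adjusted p = 0.00047).

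In the contrast of the run difference between the sexes, where 26.9% of all genes were called (2324 higher and 1949 lower), 1 of 20 other glycolysis genes was higher and 1 lower, 2 pyruvate entry genes higher and 2 lower, 2 glycogen genes higher and 0 lower, 4 regulators higher and 4 lower, and 0 lactate transport genes were called. Like the 4 members, Epas1 (-0.53 ± 0.09), Slc2a8 (-0.48 ± 0.08) and Pdk2 (-0.40 ± 0.08) were negative there. Mpc1 (0.55 ± 0.11), Pfkfb2 (0.62 ± 0.13) and Tbc1d4 (0.46 ± 0.11, edgeR adjusted p = 0.000958), which restrains GLUT4 at rest, were positive. With so many genes called, the counts of these lists do not set them apart either.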

How the data were processed

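Per the labels' protocols, total RNA was column-purified, poly-A selected and made into NEBNext libraries for a NovaSeq-6000. STAR 2.7.8a, FastQC 0.11.9 and GRCm39 (mm39) are named per the submitters' processing notes. The counting tool, its strand setting and its annotation: not given in the sources used here. The authors deposited 1 table of raw counts per Ensembl gene. Of its 56941 genes, 56323 matched GENCODE vM39, which supplied symbols, lengths and coordinates.

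Groups come from the labels. Library totals of 13484776 or more give every member at least 165 counts per library. Counts were tested with edgeR 4.0.16 (R 4.3.3, quasi-likelihood, TMM) on 15879 genes kept by filterByExpr, in a fit of the 8 groups and, for the runs, a fit of the 16 cells of group and run, with Benjamini-Hochberg adjustment over all genes and a threshold of 0.05. CPM use TMM-adjusted library sizes. Correlations and ratios used log2 CPM in Python 3.11.15. The scripts were tested on simulated data. Levels between genes are per kilobase of merged exons.

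Alternatives were DESeq2 1.42.0, limma-voom 3.58.1, RLE factors, no mitochondrial genes, no filter, only the groups compared, each run alone, a run term, the Rn18s-rs5 share, 2 clock components, libraries with at most 10 CPM of Myl7, a replicate block, and each library left out. The length index, the run contrast between the sexes, leaving out libraries in the run comparisons and the ratios, and the canonical lengths were added after the data were seen. The members, the pathway lists and the marker lists were chosen with earlier results of these data known. Other pathway genes are named where called, at most 6 per comparison by smallest p, and the 3 genes of highest r are named for each member. Same-numbered male and female libraries were not taken as pairs.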

Additional observations from a re-analysis of the deposited data

Results flagged for a closer look

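In 12 of 80 tests of a gene in a group of 10, the highest or lowest library lay farther from its nearest neighbour than Dixon's 95% limit allows. The limit is set to flag about 1 in 20 groups of normally distributed values. The members share libraries, so the 80 tests are not independent, and the rate over all genes was not counted. Male Western replicate 7 was the extreme library for 5 genes: Hk2 at 250 CPM (the others 314 to 387), Aldoa at 3340 (2150 to 2550), Gapdh at 4960 (2840 to 3490), Ldha at 1090 (596 to 675) and Ldhb at 1120 (1340 to 1560). Hk2 was also lowest in male Mix replicate 5, at 238 CPM (the others 310 to 383). Pfkm was lowest in male Gamma replicate 10, at 796 CPM (974 to 1160), and in female Mix replicate 10, at 579 (890 to 1290). Gapdh was highest in female sham replicate 9, at 4460 CPM (2860 to 3320). Pgam2 was lowest in male Western replicate 9, at 383 CPM (445 to 506), and Slc2a1 in female sham replicate 4, at 12.4 (16.8 to 23.3). Ldhb was lowest in the library labelled female Gamma replicate 7, at 1090 CPM (1260 to 1410), the library that lacks Xist.

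The difference between the title runs differed between the sexes, by the edgeR test of that difference, for Slc2a4 (-0.39), Pgam2 (-0.36), Slc2a1 (-0.32) and Eno3 (-0.24), each given as male minus female on the log2 scale.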

How the results depend on the processing

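The counts of 0 members called in the 12 condition comparisons and in the 3 tests of those effects between the runs held under each alternative that gave a value and with each library left out. The sex comparison called 6 members in title numbers 1-20 alone and 3 in 21-40 alone, against 0 over all, and 0 to 1 with a library left out (Pgam2, adjusted p = 0.0264, without female Mix replicate 10). With the Rn18s-rs5 share and run as terms, the run comparison called 1 member in males, 0 in females and 1 in the contrast between the sexes (from 2, 5 and 4). With clock components that contrast called 7, and with the length index the female run comparison called 3. In those comparisons the cause was not tested. Of the isozyme ratios outside the run comparisons, 1 passed over all libraries and 0 in each run alone, where fewer libraries enter. Over all 50 ratio tests 4 passed, and 3 to 7 did with a library left out (7 without male Western replicate 7). Pairs of members with r over 0.5 numbered 9 over all libraries, 17 in second-run males and 21 in first-run females, from 20 libraries each. Slc2a4 between the sexes was called with opposite signs in the runs, 0.19 in the first and -0.20 in the second, and not over all libraries. No value called over all libraries changed sign. Same-numbered male and female libraries share a condition and a run. With the means of group and run removed they did not deviate together (median r -0.00281 over 40 pairs, 6 over 0.1). That value cannot exclude that they share more. With the replicate number as a block the sex comparison and the 3 differences of a condition effect between the sexes again called 0 members, and 1 of 40 males correlated best with its own number. Without libraries over 10 CPM of Myl7, cells of group and run were emptied and the comparisons between the runs could be fitted in females only. Counts over all genes depend on the tool: Western males had 63 by edgeR, 146 by DESeq2 and 52 by limma-voom, Western females 3, 8 and 2, the Western difference between the sexes 71, 110 and 78, Mix males 11, 23 and 7, the Mix difference between the sexes 5, 11 and 1, Gamma males 28, 12 and 0, and the Mix effect between runs 201, 328 and 130. Depth limits Slc2a1 most, at 165 to 510 counts per library.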
